A study of Homo sapiens with 6 samples.

Results

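A set of 9 genes for secreted signalling proteins were followed through treatment of a colon cancer cell line with a DNA methylation inhibitor. They are the bone morphogenetic proteins (BMPs) BMP2, BMP4, BMP6, BMP7, BMP8A and BMP8B, the activin subunits INHBA and INHBB, and the stress-induced factor GDF15, all of the transforming growth factor β (TGF-β) superfamily. The genes were grouped by family and picked from a larger analysis with their treated-against-untreated differences in view, so those differences are given as a description and support nothing about the group. All 9 of the 9 genes had a probe set, 1 each, among 927 named genes and 1259 probe sets.

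HCT-15 is an established human colorectal carcinoma line. Its total RNA was hybridised to 6 Affymetrix arrays, 3 of untreated cells and 3 of cells given 5-aza-2'-deoxycytidine (decitabine), a cytidine analogue that enters DNA and depletes DNA methyltransferases. Both groups are the same line with no other treatment named, and the dose, the length of exposure and any vehicle are not stated for them. The submitters asked which glycan-related genes change in cells that gain sialyl Lewis x and bind E-selectin after the drug. Untreated replicate 3 is labelled untreated in its source name and treatment field but "Treated" in its title, and it was kept as untreated. Whether replicates were separate cultures is not recorded, and the p-values below then cover only the spread between these RNA samples.

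Ligands of this superfamily are made as precursors, cut by proteases and secreted as dimers. BMPs and activins bring together type I and type II serine/threonine kinase receptors, which phosphorylate SMAD proteins that enter the nucleus. In the intestine BMP signalling is strongest towards the crypt mouth, where it restrains stem cell programmes and favours differentiation. Activins are dimers of inhibin β subunits and are trapped by follistatin. GDF15 is a divergent member that acts through the receptor GFRAL in the hindbrain and is widely used as a marker of cell stress.

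The values are RMA summaries on the log2 scale, where a difference of 1 is a 2-fold change. Array medians lay between 5.81 and 5.92, and any pair of arrays from different groups correlated at 0.9817 to 0.9844, against at least 0.9974 within a group. Of 17 listed markers of colon epithelium 5 were measured, and their untreated means were 9.54 for LGALS4, 7.97 for MUC13, 5.57 for MUC2, 5.26 for GCNT3 and 5.15 for B3GNT3. In treated cells MUC13 (log2 change 0.96) and GCNT3 (0.54) were called higher and LGALS4 (-0.51) and B3GNT3 (-0.37) lower. Of 22 leukocyte markers 17 were measured, and their log2 levels summed to 78.9 to 80.9 in untreated and 78.4 to 79.4 in treated arrays. Within that list CD33 (0.57) and KLRD1 (0.25) were called higher and KLRC1 (-1.01) and CD22 (-0.25) lower. A dimmer probe set of KLRD1 had a log2 change of 0.02 and was not called. Of 17 stromal and endothelial markers 8 were measured, with sums of 28.5 to 29.7 and 28.5 to 29.2, and PECAM1 (0.30) was called higher and PDGFRB (-0.48) lower. Sums of log2 values are not RNA totals and do not compare lists of different length. Untreated means ran from 2.84 to 6.66 in the leukocyte list and from 2.43 to 5.22 in the stromal and endothelial list. Both ranges overlap the epithelial levels. Marker calls stand beside 34.8% of probe sets called over the whole array. The part of the marker genes in the results below was not tested. A probe set's brightness also depends on its probes. Its place among all probe sets, given below for some genes, therefore does not rank RNA amounts between genes.

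Treated cells had more BMP7, INHBB, GDF15, BMP8A, BMP6 and BMP2 RNA and less BMP8B RNA, while INHBA and BMP4 overlapped between the groups. The differences ran from a 9.98-fold higher level for BMP7 to a 1.32-fold lower one for BMP8B. In limma's fit over all probe sets (Benjamini-Hochberg adjusted p under 0.05, the rule for a call throughout), 6 of the 9 genes were called higher and 1 lower. The calls of BMP2 and BMP8B were each lost in 2 of the alternative fits. Over the whole array 34.8% of probe sets were called, 18% higher and 16.8% lower. Of all calls 51.8% were thus higher, against 38.8% under median centring of the arrays, which left the calls of these genes as they were. Values of the 2 groups did not overlap for 7 of the 9 genes, and for 46.1% of all probe sets. The median log2 change was 0.44 over the 9 genes and -0.01 over all probe sets. Because the genes were picked with these values known, the counts are not evidence that the family behaves apart from the array.

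**Figure D1:**
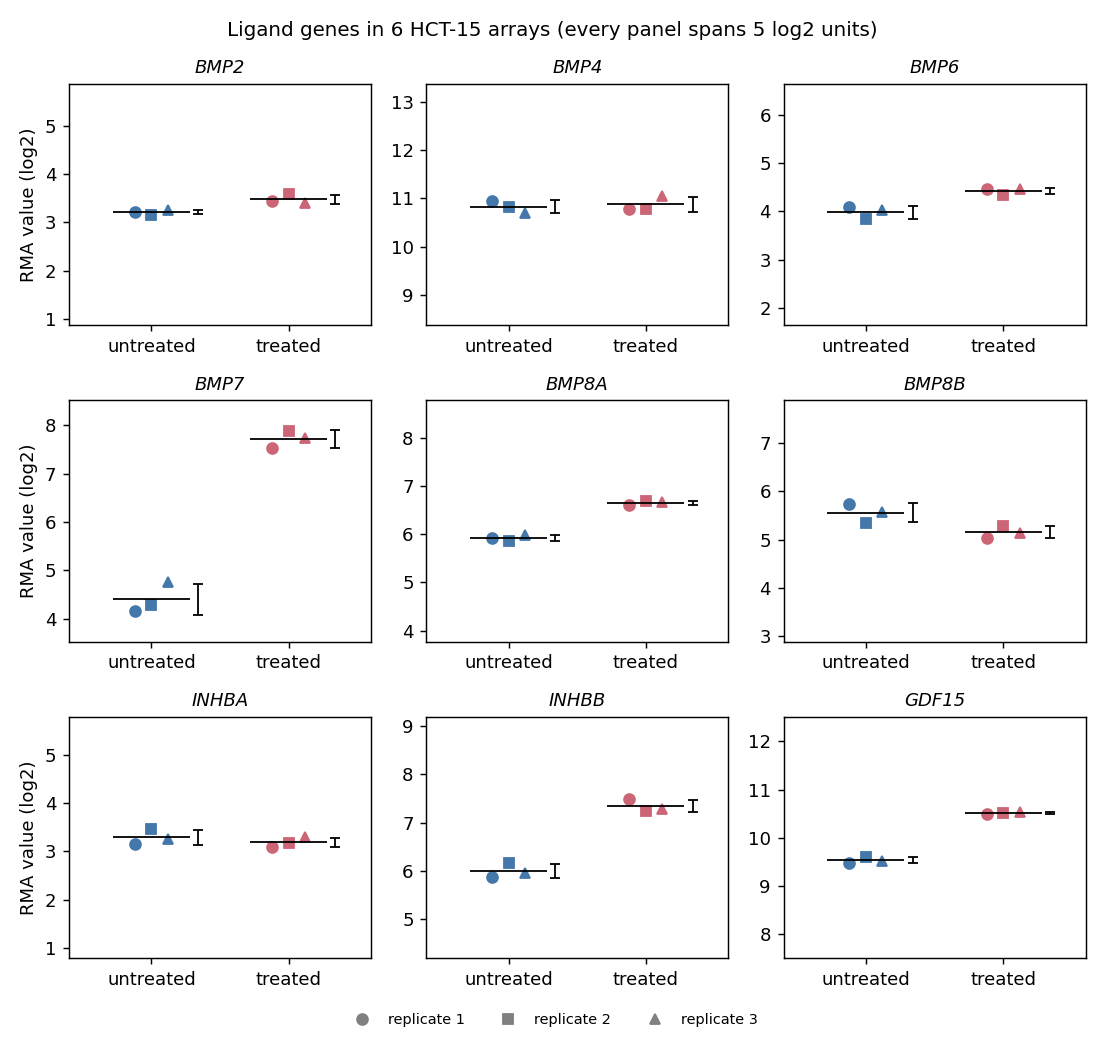
RMA value (log2) of each ligand gene in the 3 untreated (blue) and 3 treated (red) arrays, with the symbol showing the replicate number, the horizontal line the mean and the bar 1 SD on each side. All panels have the same height in log2 units. The BMP7 groups are separated by 2.77, while those of BMP4 and INHBA overlap.

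BMP7, a BMP with roles in kidney and skeletal development, is represented by the probe set of RefSeq transcript NM_001719. Its values were 4.15, 4.28 and 4.76 in untreated replicates 1 to 3 and 7.53, 7.89 and 7.74 in treated replicates 1 to 3. Every treated array was far above every untreated one, and the nearest pair still differed by 2.77, or 6.8-fold. The means were 4.40 ± 0.32 and 7.72 ± 0.18 (SD, n = 3 each), a log2 change of 3.32 ± 0.15 (SE). No other of the 1259 probe sets had a higher log2 change, but CHST15 (3.27) and VCAN (3.25) came close. The spread of BMP7 was also large, since only 1.43% of probe sets had a larger pooled SD within groups. Untreated replicate 3, the array with the conflicting title, lay 0.36 above the untreated mean for BMP7 and remained well below the treated arrays. Without that array the log2 change of BMP7 was 3.50.

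BMP6, a relative of BMP7 best known for inducing hepcidin in the liver, read 4.08, 3.83 and 4.03 in the untreated arrays and 4.46, 4.34 and 4.46 in the treated arrays. The groups stood 0.26 apart at their closest, and the log2 change was 0.44 ± 0.08 (SE, n = 3 each), a 1.35-fold higher level. The probe set is dim, with 21.7% of all probe sets at or below its untreated mean.

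BMP8A and BMP8B are closely related copies on chromosome 1, and their probe sets went opposite ways. BMP8A read 5.91, 5.86 and 5.98 untreated and 6.60, 6.68 and 6.66 treated. Its groups were tight, the gap between them was 0.62, and the log2 change was 0.73 ± 0.07 (SE, n = 3 each), 1.66-fold higher. BMP8B, a BMP studied in brown fat and germ cells, read 5.73, 5.35 and 5.58 untreated and 5.04, 5.29 and 5.14 treated. Here the lowest untreated and the highest treated array were only 0.06 apart, and the log2 change was -0.40 ± 0.10 (SE, n = 3 each). The call for BMP8B was lost without treated replicate 1 (log2 change -0.34, limma adjusted p = 0.0563), against an adjusted p of 0.0124 with all arrays. Probe sequences were not used here, so how far each probe set also binds the other copy's transcript is not known.

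The reference promoters of this pair were compared, and cytosines that precede guanine (CpG) were counted in them. Transcript sequences were not compared. Each line gives the 250 bases before the RefSeq start (GRCh38.p14), 5′ to 3′ on the gene's strand, with CpG dinucleotides in capitals. The window of BMP8A is chr1:39491386-39491635 on the plus strand and that of BMP8B is chr1:39788866-39789115 on the minus strand.
BMP8A: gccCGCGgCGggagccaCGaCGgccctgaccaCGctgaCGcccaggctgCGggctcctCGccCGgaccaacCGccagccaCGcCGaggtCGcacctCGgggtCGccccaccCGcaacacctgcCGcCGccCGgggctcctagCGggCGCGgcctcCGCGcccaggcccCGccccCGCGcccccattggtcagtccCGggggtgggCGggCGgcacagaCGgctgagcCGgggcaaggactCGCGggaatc
BMP8B: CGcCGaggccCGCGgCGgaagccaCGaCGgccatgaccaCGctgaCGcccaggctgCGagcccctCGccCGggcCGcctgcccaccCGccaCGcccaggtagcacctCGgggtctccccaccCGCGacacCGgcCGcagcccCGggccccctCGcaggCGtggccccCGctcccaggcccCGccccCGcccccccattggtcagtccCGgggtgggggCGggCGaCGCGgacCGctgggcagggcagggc

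In a global alignment 206 of 237 aligned bases were identical (86.9%), with 26 gap positions. The BMP8A window held 35 CpG and the BMP8B window 32. At least 35 were found in 5.8% of the 35116 such windows of the RefSeq table, and at least 32 in 9.52%. Among windows of the genes on the array these shares were 8.47% and 12.6%. Methylation was not measured on these arrays, and the start site used in HCT-15 is not known from them, so the windows describe the reference sequence only.

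BMP2 and BMP4 form the other BMP branch in this set and had small differences between the groups. BMP2, an inducer of bone formation, read 3.21, 3.16 and 3.25 untreated and 3.44, 3.59 and 3.41 treated. All treated values were higher, by 0.17 at the closest, but the probe set is among the dimmest, with 8.5% of probe sets at or below its untreated mean. The log2 change was 0.28 ± 0.07 (SE, n = 3 each), 1.21-fold. The call for BMP2 (adjusted p = 0.0134 in limma) was lost without untreated replicate 2 (0.0537) and without treated replicate 2 (0.0605).

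BMP4, a BMP made in the gut mesenchyme and also in colorectal tumours, gave a bright signal in every array. It read 10.95, 10.82 and 10.70 untreated and 10.78, 10.79 and 11.06 treated. The treated range spanned from inside the untreated range to just above it. The log2 change was 0.05 with a 95% interval of -0.17 to 0.27, so a change of more than about 0.27 in either direction lies outside the interval. Its sign turned after median centring (-0.02).

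Of the activin subunits, INHBB was higher in treated cells and INHBA overlapped between the groups. INHBB, the βB subunit of activin B, read 5.88, 6.17 and 5.95 untreated and 7.49, 7.25 and 7.29 treated. The groups were 1.08 apart at their closest, and the log2 change was 1.34 ± 0.10 (SE, n = 3 each), a 2.54-fold higher level. Only 26 probe sets had a higher log2 change. INHBA, the βA subunit of activin A, read 3.16, 3.46 and 3.25 untreated and 3.10, 3.17 and 3.29 treated. These values overlapped, and the log2 change was -0.10 with a 95% interval of -0.30 to 0.10. INHBA is dim, with 9.85% of probe sets at or below its untreated mean, and RMA compresses differences in that range.

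The reference promoters of both subunits lie at opposite ends of CpG content, which is why they are shown. The INHBB window is chr2:120345886-120346135 on the plus strand and the INHBA window is chr7:41703091-41703340 on the minus strand, drawn as before with CpG in capitals.
INHBB: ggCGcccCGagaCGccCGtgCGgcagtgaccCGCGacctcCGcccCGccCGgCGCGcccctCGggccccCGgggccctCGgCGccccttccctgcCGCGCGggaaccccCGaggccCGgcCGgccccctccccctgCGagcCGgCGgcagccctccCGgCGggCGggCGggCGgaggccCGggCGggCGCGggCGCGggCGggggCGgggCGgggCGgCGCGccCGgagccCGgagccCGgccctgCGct
INHBA: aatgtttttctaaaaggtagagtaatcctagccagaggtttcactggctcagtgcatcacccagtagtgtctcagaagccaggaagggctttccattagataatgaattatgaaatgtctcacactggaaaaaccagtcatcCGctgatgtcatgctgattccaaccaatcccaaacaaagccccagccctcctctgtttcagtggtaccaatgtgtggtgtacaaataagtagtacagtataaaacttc

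INHBB had 46 CpG in its 250 bases, a number reached by 0.413% of windows in the table, and INHBA had 1, which 93.9% of windows reach. Among windows of the genes on the array these shares were 0.682% and 96.2%. The median window held 11 CpG over all genes and 16 over the genes of the array. Windows were matched for 7 of the 9 ligand genes, and none for BMP2 or BMP7. The single BMP6 window held 26 CpG and the GDF15 window 9, and the 3 BMP4 windows held 17, 25 and 27. BMP6, GDF15, INHBB and BMP8A (35 CpG) were called higher, BMP8B (32 CpG) lower, and BMP4 and INHBA were not called. Whether CpG content relates to these changes was not tested, and methylation was not measured.

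GDF15, also known as macrophage inhibitory cytokine 1, read 9.47, 9.61 and 9.52 untreated and 10.49, 10.52 and 10.53 treated. It was the most even of the 9 across replicates, and 89.3% of probe sets had a larger pooled SD within groups. The gap between the groups was 0.89 and the log2 change 0.98 ± 0.07 (SE, n = 3 each), 1.97-fold. It was bright already in untreated cells, with 86.6% of probe sets at or below its untreated mean.

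**Figure D2:**
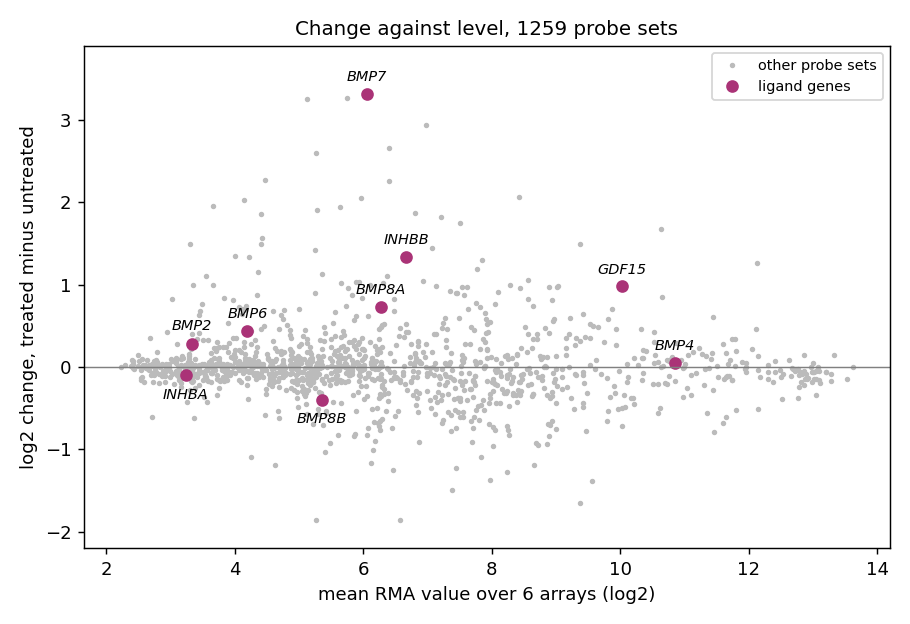
Log2 change (treated minus untreated, vertical axis) against the mean RMA value over 6 arrays (log2, horizontal axis) for 1259 probe sets, with the ligand genes in purple. BMP7 is at the top at 3.32, INHBB at 1.34 and GDF15 at 0.98, while BMP4 lies near 0 at the bright end.

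No array was high or low for all the ligand genes. In untreated replicate 3, 5 of the 9 genes were above their group mean, and in the other untreated arrays 4 and 3. In treated replicates 1 to 3 there were 2, 5 and 6. The median deviation of the 9 genes was between -0.05 and 0.03 in every array.

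Genes whose 6 values ran closest to those of BMP7 were CHST15, a chondroitin sulfate sulfotransferase, the proteoglycan VCAN and the hyaluronidase HYAL1. Likeness was the root mean square difference after each gene was centred on its untreated mean, computed over 6 arrays for 918 other genes. It was 0.20 for CHST15, 0.36 for VCAN and 0.38 for HYAL1. CHST15 read 3.96, 4.14 and 4.23 untreated and 7.46, 7.29 and 7.40 treated. Closest to INHBB were IFITM1, an interferon-induced membrane protein (0.12), the chemokine CCL26 (0.13) and the chemokine receptor CXCR4 (0.14). With only 2 conditions, likeness mostly reflects a similar size of difference.

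The other ligands of the superfamily mostly did not pass the test. Of 24 listed, 12 were measured, and in limma's fit 0 were called higher and 1 lower. At an unadjusted p under 0.05 there were 0 higher and 3 lower. Over the whole array 34.8% of probe sets were called. The 9 ligand genes were picked with this contrast in view, so their calls and those of this list are not an even comparison. This list and those below were also chosen with earlier results of these data known. Untreated means of the list ran from 2.96 to 7.51 with a median of 4.84, and RMA compresses differences at the dim end. TGFB3, a TGF-β isoform, read 7.77, 7.43 and 7.31 untreated and 5.56, 5.59 and 5.79 treated, and it fell by 1.86 on the log2 scale (limma adjusted p = 6.94e-07). BMP5, of the same branch as BMP6 and BMP7, had a log2 change of -0.12 ± 0.09 (SE, n = 3 each) and was not called. After quantile normalization or median centring, 3 of these ligands were called lower, the added ones being GDF2 and GDF11. The median log2 change of the list was -0.08.

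Among 12 measured receptors of 21 listed, 2 rose and 2 fell, with a median log2 change of 0.02. These 4 of 12 are close to the 34.8% of all probe sets called. ACVR2B, a type II receptor for activins and several BMPs, read 7.52, 7.57 and 7.28 untreated and 8.19, 8.06 and 8.28 treated. It rose by 0.72 ± 0.09 (SE, 1.65-fold, limma adjusted p = 0.000128). ACVRL1, a type I receptor for GDF2 (BMP9) and BMP10 known from endothelium, rose by 0.49 ± 0.08 (adjusted p = 0.00046). The type II TGF-β receptor TGFBR2 fell by 0.34 (SE 0.08, adjusted p = 0.00788) and the co-receptor TGFBR3 by 0.40 (SE 0.10, adjusted p = 0.0111). TGFBR3 missed the threshold without untreated replicate 2 (0.0551), which left 1 receptor called lower. The BMP receptors BMPR1A (-0.11 ± 0.08), BMPR1B (-0.07 ± 0.07) and BMPR2 (0.09 ± 0.09) and the activin receptors ACVR1B (0.15 ± 0.08) and ACVR2A (0.06 ± 0.08) were not called. ACVR1 (0.35 ± 0.13, adjusted p = 0.0577) lay just outside the threshold. Receptors called higher numbered 3 after quantile normalization, with an intensity trend, with array weights and without untreated replicate 2.

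Of 26 listed antagonists and processing proteases 4 were measured, and follistatin, FST, was the only one called, with 1 higher and 0 lower (0 lower also at an unadjusted p under 0.05). This 1 of 4 is not above the 34.8% of all probe sets called. FST binds activins and blocks their receptor contact. Its brightest probe set read 5.62, 5.56 and 5.65 untreated and 6.63, 6.62 and 6.57 treated, a rise of 1.00 ± 0.07 (SE, n = 3 each, 1.99-fold, limma adjusted p = 1.23e-06). Of its other 2 probe sets, one rose by 1.04 ± 0.07 and a dimmer one, at 3.80 untreated, had a change of 0.19 ± 0.09 (adjusted p = 0.144). The BMP antagonists NOG (5.42, 5.46 and 5.43 untreated, 5.50, 5.33 and 5.49 treated) and CHRD (log2 change 0.01 ± 0.07) and the protease BMP1 (0.02 ± 0.11) were not called. None of 20 listed SMAD, SMAD-regulating and target genes was matched to a probe set.

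Of 15 listed proteoglycans that can bind these ligands or serve as co-receptors, 13 were measured, and 2 rose and 2 fell, TGFBR3 being counted here too. These 4 of 13 are again close to the 34.8% called over the array. The syndecan SDC4 rose by 0.70 ± 0.08 (SE, adjusted p = 3.6e-05 in limma) and the small proteoglycan BGN by 0.33 ± 0.09 (adjusted p = 0.011). The glypican GPC4 fell by 0.54 (SE 0.09, adjusted p = 0.000983). Without untreated replicate 2, 1 of these genes was called lower. Without untreated replicate 1 there were 3, as there were under either scaling, with an intensity trend and with array weights, the added one being the glypican GPC5 (log2 change -0.20, limma adjusted p = 0.0586 with all arrays).

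**Figure D3:**
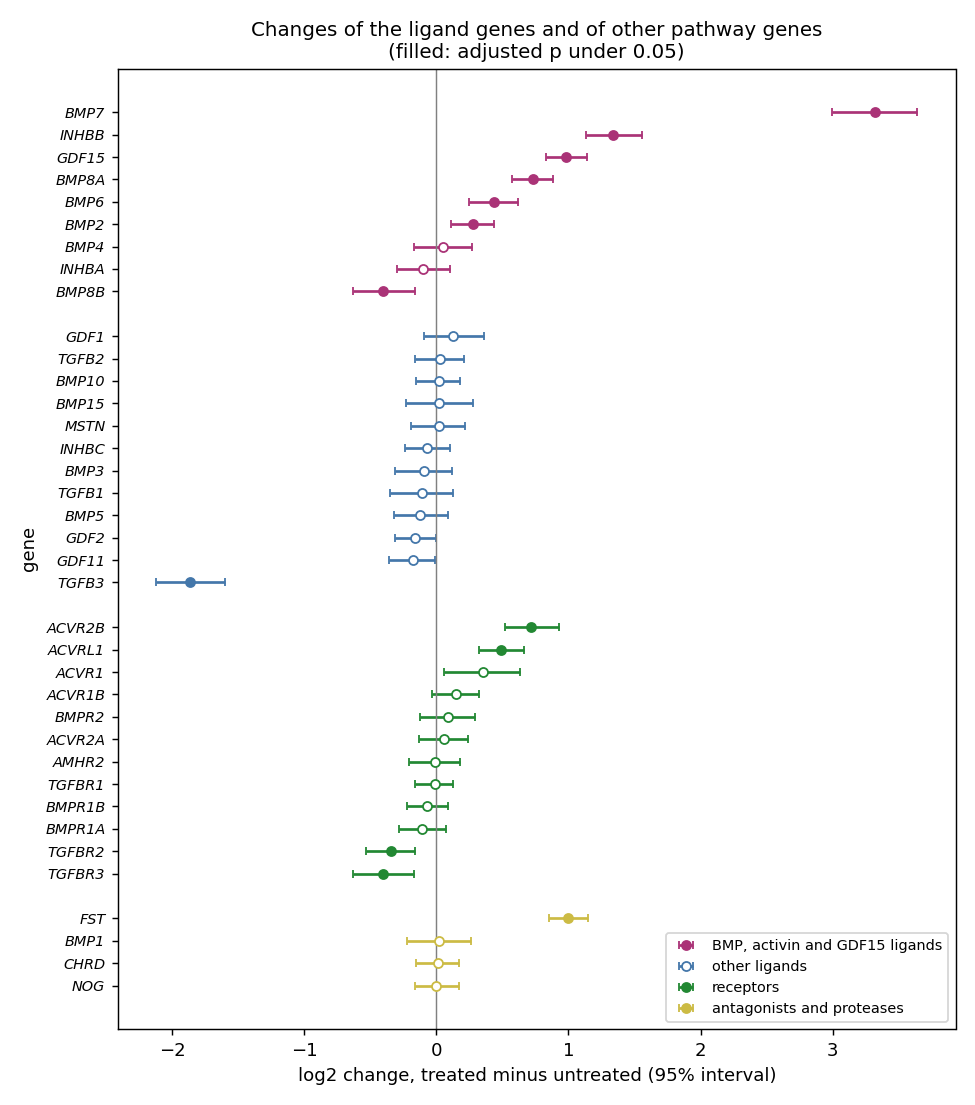
Log2 change (treated minus untreated, horizontal axis) with its 95% interval for the 9 ligand genes, 12 other superfamily ligands, 12 receptors and 4 antagonists or proteases, 1 probe set per gene. Filled points had an adjusted p under 0.05 in limma's fit. The ligand genes and the lists were chosen with earlier results known, so this is a description. BMP7 lies farthest to the right and TGFB3 farthest to the left.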

How the data were processed

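The authors deposited 1 table of log2 values for 1259 probe sets on 6 arrays, made with RMA per the submitters' processing notes. RMA's settings, the kind of array and its annotation build are not stated. The log2 unit was read from the range, 2.13 to 13.67. Columns of values not used numbered 0. Probe sets were named through the RefSeq transcript in their name (RefSeq gene table, GRCh38.p14, names only), which gave 1 symbol to 1043 and none to 216. The brightest probe set by its mean over all arrays stood for a gene with several. Endings such as _s_at (BMP4, BMP6, GDF15, FST) mark sets that can bind several transcripts.

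Treated and untreated arrays were compared in R 4.3.3 with limma 3.58.1 (lmFit, eBayes, two-sided, Benjamini-Hochberg over 1259 probe sets, adjusted p under 0.05), checked on simulated data. Intervals are 95% intervals of that fit. The number of arrays limits the precision. Promoter windows came from a RefSeq table and were aligned with Biopython 1.88 (match 2, mismatch -1, gap opening -5, extension -1).

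The genes and lists were chosen with earlier results of these data known. Named were all ligand genes, every called gene of each pathway list, and the 3 genes nearest to each ligand gene whose log2 change was 1 or more; other genes were named after their values were seen. Alternatives were 2 scalings, a filter on dim probe sets, an intensity trend, a block for replicate number, array weights, and each array left out. At most 5 values were identical between any pair of arrays. Same-numbered arrays did not deviate together, so the numbers were not taken as pairs.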

Additional observations from a re-analysis of the deposited data

How the results depend on the processing

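BMP7, INHBB, GDF15, BMP8A and BMP6 kept their direction and call in each of the alternatives run, 12 for the first 4 genes and 11 for BMP6. The log2 change ranged from 3.20 to 3.50 for BMP7, 1.27 to 1.43 for INHBB, 0.91 to 1.02 for GDF15, 0.64 to 0.76 for BMP8A and 0.31 to 0.49 for BMP6. INHBA was called in none of its 11 (adjusted p from 0.203 to 0.931), and BMP4 in none of its 12 (0.483 to 0.942). The log2 change of BMP4 lay between -0.04 and 0.11 when 1 array was left out. Its sign turned after median centring (-0.02), with array weights (-0.04), without untreated replicate 3 (-0.01) and without treated replicate 3 (-0.04). The adjusted p of BMP2 ranged from 0.00718 to 0.0605 and that of BMP8B from 0.00424 to 0.0563. Leaving out 1 array gave 0 to 1 ligand genes called lower, 1 to 2 receptors and 1 to 3 proteoglycans called lower. Without the dimmest probe sets (840 left) BMP2, BMP6 and INHBA were not tested and 5 ligand genes were called. Other ligands called lower were 3 under either scaling, quantile or median. Receptors called higher numbered 2 or 3 across the alternatives. The causes were not tested.

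Same-numbered arrays of the 2 groups had correlations of deviations of -0.27, 0.04 and -0.11, and no array correlated best with its own number. With the replicate number as a block, 394 probe sets were called against 438. Under that block 0 ligand genes were called lower (BMP8B adjusted p = 0.0561), 1 receptor and 1 proteoglycan, TGFBR3 having an adjusted p = 0.0502. Of calls over the whole array 51.8% were higher, against 38.8% after median centring and 45.4% after quantile normalization. Averaging several probe sets of a ligand gene was not run, as each has 1. Signal over background is not known for these arrays, which limits what the dim probe sets of BMP2, INHBA and BMP6 can show.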
